A study of Mus musculus with 4 samples.

Results

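The genes described here make, load and display MHC class I molecules, among them Qa-1, in CD8 T cells. They are the heavy chain genes H2-K1, H2-D1 and H2-T23, the light chain gene B2m, the peptide transporter genes Tap1 and Tap2, the loading factor gene Tapbp, the immunoproteasome genes Psmb8 and Psmb9, and the transactivator gene Nlrc5. All probe sets whose annotated symbol is or includes 1 of these 10 genes were taken, which gave 31 of the 45101 probe sets on the array. Spleen CD8 T cells of wild-type B6 mice were sorted, and their RNA was read on 4 Affymetrix arrays. The Ly49+ group (CD44+CD122+Ly49+, called CD8 Treg in the labels) and the Ly49- group (CD44+CD122+Ly49-, called conventional memory cells) had 2 arrays each. Nothing in the labels says that replicates are separate animals, and the spread behind each p-value may thus be technical. These are bulk samples, in which fewer cells of a type and less RNA per cell cannot be told apart.

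The 4 arrays had median intensities of 188.5 to 190.4, and the pairwise Pearson correlation of their log2 values was 0.996 to 0.998. A background level was taken from 27 Bacillus control probe sets, whose highest reading was 70.3. A newer probe set of the spiked BioB controls read 2833 to 3111 on all 4. In an older BioB probe set, Ly49- replicate 1 stood apart (702, against 2750 to 3084 on the other arrays), and other BioB probe sets were not compared. Without that array, the 26 member probe sets above background had log2 fold changes between -0.44 and 0.21 and a lowest limma adjusted p of 0.15.

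MHC class I molecules show peptides from inside the cell to CD8 T cells and to receptors of natural killer (NK) cells. The proteasome cuts proteins into peptides, TAP carries the peptides into the endoplasmic reticulum, and tapasin helps load them onto a heavy chain paired with beta-2 microglobulin. Qa-1, encoded by H2-T23, is a nonclassical class I molecule that mainly presents a peptide from the leader of other class I chains and is read by CD94/NKG2 receptors and by some CD8 T cells. Ly49 receptors, on which these cells were sorted, bind classical class I molecules. NLRC5 and interferon signalling raise many of these genes together.

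That shared regulation acts through promoter sequence, so the bases before the transcription start are shown for genes whose readings are set side by side here. RefSeq promoters (build GRCm38.p6) were matched for 8 of the 10 genes, all but Tap2 and Nlrc5. Tap1 and Psmb9 are divergent neighbours, and the whole interval between their starts is given. Capitals mark the Y box core CCAAT, the X2 box core TGACG and the interferon-stimulated response element core (GAAA, any 2 bases, GAAA), each searched on both strands. Sequences run 5′ to 3′ on the strand of the gene, and on the plus strand for the interval.
H2-K1 (chr17:34000348-34000597, minus strand): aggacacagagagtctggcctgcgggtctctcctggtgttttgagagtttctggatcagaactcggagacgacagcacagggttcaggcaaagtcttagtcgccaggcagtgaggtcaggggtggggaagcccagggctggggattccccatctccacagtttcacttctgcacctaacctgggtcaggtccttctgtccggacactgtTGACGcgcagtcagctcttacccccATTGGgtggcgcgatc
H2-D1 (chr17:35262844-35263093, plus strand): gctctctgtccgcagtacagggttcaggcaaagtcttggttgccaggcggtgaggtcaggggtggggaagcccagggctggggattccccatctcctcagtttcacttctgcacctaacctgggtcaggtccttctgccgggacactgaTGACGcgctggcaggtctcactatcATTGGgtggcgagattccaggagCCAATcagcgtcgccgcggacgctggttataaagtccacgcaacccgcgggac
H2-T23 (chr17:36032702-36032951, minus strand): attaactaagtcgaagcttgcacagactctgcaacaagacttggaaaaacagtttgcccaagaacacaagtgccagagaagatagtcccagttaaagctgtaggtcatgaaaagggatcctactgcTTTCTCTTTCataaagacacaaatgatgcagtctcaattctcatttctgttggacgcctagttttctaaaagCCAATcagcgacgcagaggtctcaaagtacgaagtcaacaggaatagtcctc
B2m (chr2:122147437-122147686, plus strand): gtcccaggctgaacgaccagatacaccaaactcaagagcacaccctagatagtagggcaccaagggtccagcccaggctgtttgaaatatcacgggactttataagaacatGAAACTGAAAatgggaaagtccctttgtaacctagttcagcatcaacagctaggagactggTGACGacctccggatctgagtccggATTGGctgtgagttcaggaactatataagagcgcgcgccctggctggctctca
Tap1-Psmb9 interval (chr17:34187331-34187555, plus strand): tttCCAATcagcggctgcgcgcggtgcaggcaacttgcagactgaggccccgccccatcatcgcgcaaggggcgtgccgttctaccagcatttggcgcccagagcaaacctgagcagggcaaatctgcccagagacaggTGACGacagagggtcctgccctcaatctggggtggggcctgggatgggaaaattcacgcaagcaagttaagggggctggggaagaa
In the 250 bases before the start, CCAAT was found in 7 of the 8 members and in 34.5% of 27025 mouse promoters. TGACG was found in 5 of the 8 and in 17.9% of all, and both cores in 5 of the 8 and in 6.39% of all. The CCAAT and TGACG matches of Tap1 and Psmb9 are the same sites of their shared interval, counted for both genes. The interferon-stimulated response element core was found in 2 of the 8, H2-T23 and B2m, and in 3.04% of all promoters. H2-K1, with 2 listed starts, was read at the first. These matches describe exact letters, so variant forms of each core were not marked, and no binding was measured.

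None of the 31 member probe sets passed the test between Ly49+ and Ly49- cells, so class I presentation genes showed no called change in either direction. The classical heavy chains, beta-2 microglobulin, tapasin and Nlrc5 read nearly the same in both groups, while the 95% intervals of Tap2, both H2-T23 probe sets, Psmb9 and the brighter Psmb8 probe set lay below 0 before adjustment for the number of probe sets. Limma, run across all 45037 probe sets on log2(intensity + 16) with Benjamini-Hochberg adjustment, called 0 of 31 at an adjusted p under 0.05, where 1.19% of all probe sets were called (0.766% higher and 0.429% lower in Ly49+ cells). At an unadjusted p under 0.05 there were 6 of 31, all lower in Ly49+ cells and 1 of them below the background level, against 13.3% of all probe sets in either direction and 7.97% lower. The groups did not overlap for 13 of 31, against 44.9% of all probe sets. They did not overlap and were lower in Ly49+ cells for 12 of 31, against 29.1% of all probe sets. The median log2 fold change was -0.04 over the members and -0.03 over all probe sets.

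Of the 31 probe sets, 26 read above the highest bacterial control on every array and 5 below it on every array. The 5 dim ones were 2 of Tap1, and 1 each of Psmb8, H2-D1 and the pair H2-Q5 and H2-K1, and no fold is given for them. None of the 26 was called, against 1.69% of all 28309 probe sets above the controls (0.657% lower). The groups did not overlap for 10 of the 26, against 50.0% of those 28309. They did not overlap and were lower in Ly49+ cells for 9 of the 26, against 33.3% of the 28309, so these counts are near the background and say nothing particular to the members. Intensities of different probe sets depend on the probes, so they are not ranked against each other.

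**Figure D1:**
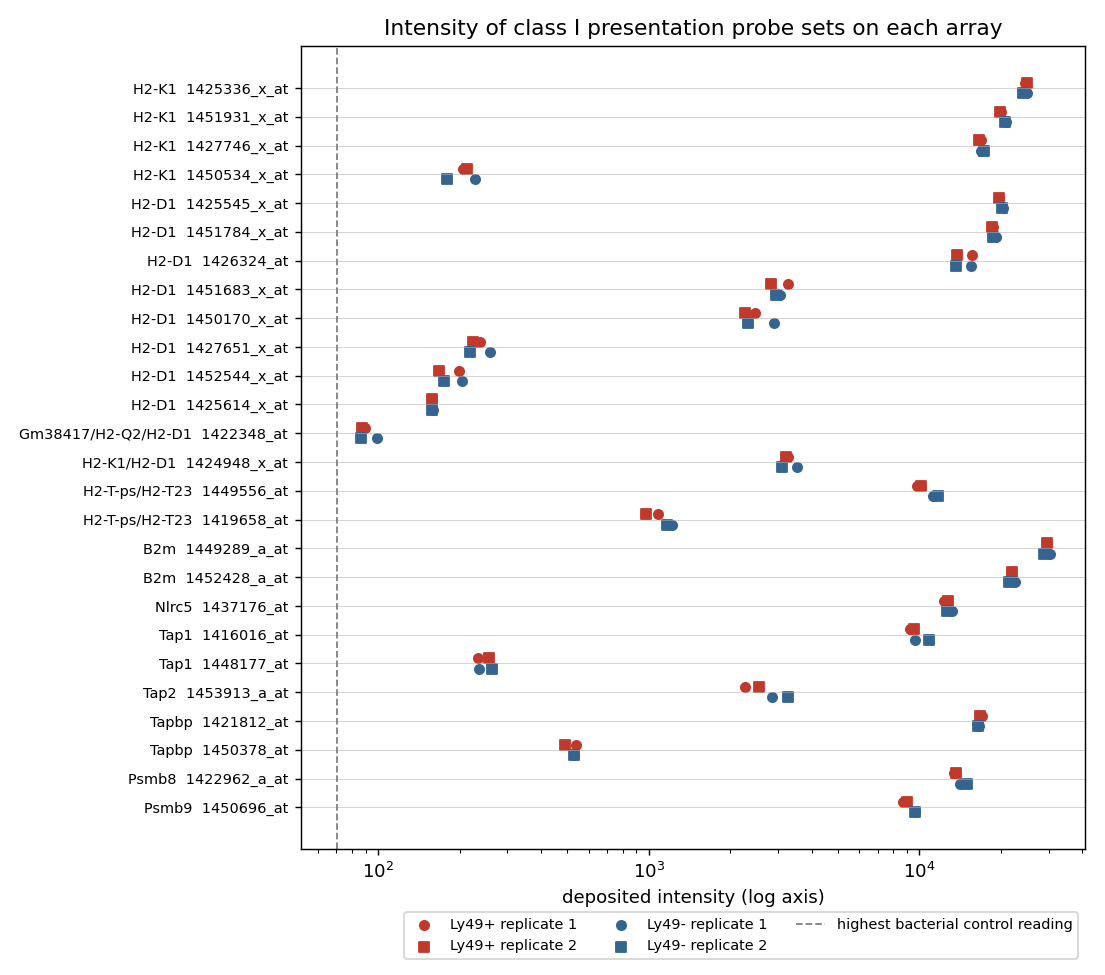
Deposited intensity (log axis) of the 26 probe sets above the highest bacterial control (dashed line, 70.3), with 1 point per array, Ly49+ above Ly49- in each row. Points of the 2 groups lie close together in every row, and both Ly49+ points lie left of both Ly49- points in 9 of the 26 rows, against 33.3% of all probe sets above the controls.

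H2-K1 and H2-D1 encode the classical heavy chains H-2K and H-2D, which present peptides to CD8 T cells. The H2-K1 probe set 1425336_x_at read 24583 and 24885 in Ly49+ cells, against 24860 and 24055 in Ly49- cells. The groups overlapped, with a log2 fold change of 0.02 ± 0.03 (SE, 2 arrays each, limma adjusted p = 0.86) and a 95% interval of 0.96 to 1.06 on the fold scale. H2-K1 was also read by 1451931_x_at, at 20015 and 19851 in Ly49+ cells, against 20869 and 20640 in Ly49- cells. Here both Ly49+ arrays were lower, by little (log2 fold change -0.06, limma adjusted p = 0.45, fold interval 0.92 to 1.01). The third bright H2-K1 probe set, 1427746_x_at, read 16855 and 16630 in Ly49+ cells, against 16860 and 17292 in Ly49- cells. One array of each group read almost the same, and the log2 fold change was -0.03 (limma adjusted p = 0.76).

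For H2-D1, 1425545_x_at read 19725 and 19719 in Ly49+ cells, against 20418 and 20178 in Ly49- cells. Both Ly49+ arrays were lower, and the log2 fold change was -0.04 ± 0.03 (SE, limma adjusted p = 0.60, fold interval 0.93 to 1.02). The probe set 1451784_x_at of the same gene read 18756 and 18546 in Ly49+ cells, against 19173 and 18730 in Ly49- cells, with overlapping groups (log2 fold change -0.02, limma adjusted p = 0.81). Another H2-D1 probe set, 1426324_at, read 15636 and 13807 in Ly49+ cells, against 15471 and 13587 in Ly49- cells, so its arrays split by replicate number and not by group. The other 6 H2-D1 probe sets above background lay between -0.14 and 0.02, the dimmer H2-K1 probe set 1450534_x_at at 0.05 and the probe set naming both genes at -0.03, with adjusted p from 0.63 to 0.9956. Heavy chain genes are near-identical in places and vary between strains, and 14 of the 31 member probe sets have names ending in _x_at or _s_at, which may detect more than 1 transcript. These readings may therefore mix H2-K1, H2-D1 and other class I genes.

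B2m encodes beta-2 microglobulin, the light chain shared by all these heavy chains. Its probe set 1449289_a_at read 29567 and 29615 in Ly49+ cells, against 30312 and 28852 in Ly49- cells. Both Ly49+ values fell between the Ly49- values, with a log2 fold change of 0.00 ± 0.03 (SE, limma adjusted p = 0.9952). The 95% interval of the fold ran from 0.95 to 1.05, and it ran from 0.94 to 1.06 for the other B2m probe set, 1452428_a_at (21853 and 21957 in Ly49+ cells, against 22497 and 21392 in Ly49- cells). Both intervals are narrow and include equality.

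Nlrc5, the transactivator of class I genes, was measured by 1 probe set (1437176_at), which read 12292 and 12791 in Ly49+ cells, against 13216 and 12609 in Ly49- cells. The groups overlapped and the log2 fold change was -0.04 ± 0.04 (SE, limma adjusted p = 0.72, fold interval 0.91 to 1.04).

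Qa-1 was read by 2 probe sets that name both H2-T23 and the pseudogene H2-T-ps, so the genes cannot be told apart here. The brighter, 1449556_at, read 9773 and 10129 in Ly49+ cells, against 11210 and 11705 in Ly49- cells. Both Ly49+ arrays lay below both Ly49- arrays, with a reading 1.15-fold lower (log2 fold change -0.20 ± 0.04 SE, 95% interval -0.30 to -0.10), and the limma adjusted p of 0.089 missed the threshold. This was the lowest adjusted p of all members. The dimmer probe set, 1419658_at, read 1079 and 974 in Ly49+ cells, against 1219 and 1172 in Ly49- cells. Its log2 fold change of -0.22 ± 0.08 (SE, limma adjusted p = 0.33) was of the same sign and size. Without 1 array at a time the brighter probe set gave -0.17 to -0.23, with adjusted p of 0.15 to 0.43. By exact letters, the promoter printed above for H2-T23 held CCAAT and the interferon-stimulated response element core. Those of H2-K1 and H2-D1 held CCAAT and TGACG. Variant forms of the cores were not searched, so no promoter is said to lack such an element. A link between these letters and the readings was not tested.

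TAP1 and TAP2 form the transporter that moves peptides into the endoplasmic reticulum. Tap2, measured by 1 probe set (1453913_a_at), read 2260 and 2556 in Ly49+ cells, against 2844 and 3276 in Ly49- cells. Both Ly49+ arrays were lower, and the log2 fold change of -0.34 ± 0.09 (SE) was the farthest from 0 of the 31. The reading was 1.27-fold lower, with a fold interval of 0.68 to 0.91 and a limma adjusted p of 0.17. Without 1 array at a time it lay between -0.24 and -0.44, with adjusted p of 0.18 to 0.52.

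The bright Tap1 probe set, 1416016_at, read 9209 and 9533 in Ly49+ cells, against 9592 and 10880 in Ly49- cells. The groups did not overlap, though Ly49+ replicate 2 and Ly49- replicate 1 lay close together. The log2 fold change was -0.12 ± 0.06 (SE, limma adjusted p = 0.45), and it was -0.03 without Ly49- replicate 2. A dimmer Tap1 probe set, 1448177_at, overlapped at 233 and 256 in Ly49+ cells, against 235 and 264 in Ly49- cells (-0.03, limma adjusted p = 0.95).

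Tapbp encodes tapasin, which bridges TAP and the heavy chain. Its bright probe set, 1421812_at, read 16980 and 16676 in Ly49+ cells, against 16537 and 16405 in Ly49- cells. It was the only member above the bacterial controls whose Ly49+ arrays both lay higher, and by little (log2 fold change 0.03 ± 0.03 SE, limma adjusted p = 0.73). The other Tapbp probe set, 1450378_at, overlapped and differed by -0.04 (limma adjusted p = 0.90).

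Psmb8 and Psmb9 encode catalytic subunits that replace their constitutive counterparts in the immunoproteasome and favour class I peptides. Psmb9, by 1450696_at, read 8694 and 8988 in Ly49+ cells, against 9664 and 9631 in Ly49- cells. Both Ly49+ arrays were lower, with a log2 fold change of -0.13 ± 0.04 (SE, limma adjusted p = 0.24, fold interval 0.86 to 0.98). Psmb8, by 1422962_a_at, read 13399 and 13609 in Ly49+ cells, against 14096 and 15017 in Ly49- cells. Both Ly49+ arrays were lower here too (log2 fold change -0.11 ± 0.04 SE, limma adjusted p = 0.33), and the value was -0.06 without Ly49- replicate 2. Psmb9 and Tap1 share the interval printed above. Their log2 fold changes were -0.13 for Psmb9, and -0.12 for the bright and -0.03 for the dimmer Tap1 probe set. A part of the interval in these values was not tested.

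**Figure D2:**
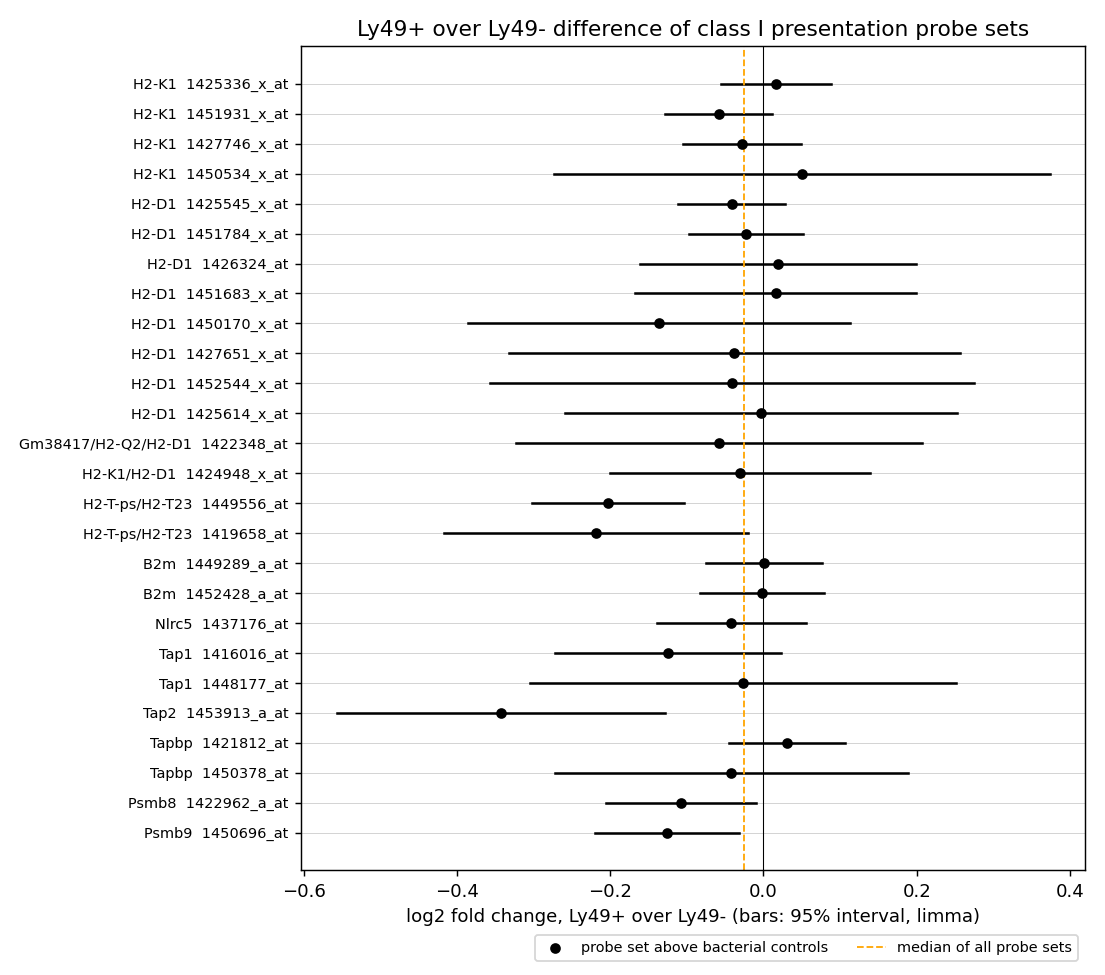
Log2 fold change, Ly49+ over Ly49-, of the 26 member probe sets above the bacterial controls, with 95% limma intervals. The dashed line is the median of all probe sets, -0.03, and the values run from -0.34 (Tap2) to 0.05.

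**Figure D3:**
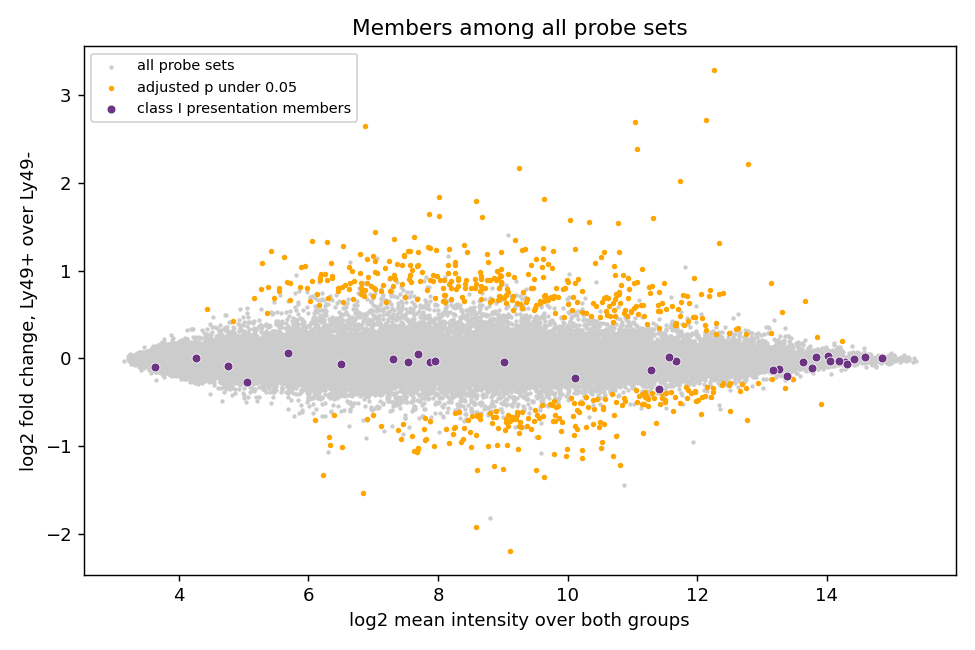
Log2 fold change, Ly49+ over Ly49-, against log2 mean intensity for all 45037 probe sets (grey), those with a limma adjusted p under 0.05 (orange) and the 31 members (purple). No member passed, and the member values run from -0.34 to 0.06.

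Other genes of the pathway were read by the brightest probe set with a single symbol, in the same test, where 1.67% of 18193 genes were called (0.973% higher and 0.693% lower in Ly49+ cells). Of 32 other class I and class I-like genes, 15 were measured in this way. Of these, 14 did not pass, 1 was higher and 0 were lower in Ly49+ cells, with a median log2 fold change of -0.04 (all genes -0.04). Hfe, a class I-like regulator of iron uptake, read 754 and 752 in Ly49+ cells, against 494 and 503 in Ly49- cells. Its groups were well apart (log2 fold change 0.58, limma adjusted p = 0.034), but it missed the threshold whichever array was left out (adjusted p = 0.16 to 0.19). Fcgrt, the neonatal Fc receptor, differed by -0.36 (limma adjusted p = 0.080), H2-M3, which presents formylated peptides, by -0.15 (0.37) and H2-T24 by -0.01 (0.98). Of the 15, 6 read below the bacterial controls on all arrays.

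Among 20 measured genes of peptide trimming, loading and folding, 0 were higher, 0 lower and 20 did not pass, with a median of -0.05 and a range of -0.26 to 0.04. Calr, the chaperone calreticulin, differed by 0.04 (limma adjusted p = 0.76), and the translocon and export genes Sec61b and Bcap31 by -0.00. Pdia3, which encodes the oxidoreductase ERp57 of the loading complex, read 7423 and 7877 in Ly49+ cells, against 9156 and 8804 in Ly49- cells. Both Ly49+ arrays were lower (log2 fold change -0.23, limma adjusted p = 0.089), and Erap1, the peptide-trimming aminopeptidase, differed by -0.18 (0.23). None of 9 measured genes of the immunoproteasome, its PA28 activator and the constitutive counterparts passed either (median -0.06, range -0.17 to 0.07). Psmb10, the third immunoproteasome subunit, differed by -0.06, Psmb5, the constitutive counterpart of Psmb8, by -0.17 and Psmb6, that of Psmb9, by -0.06, with adjusted p of 0.62, 0.13 and 0.52. Psme1, a subunit of PA28, differed by -0.05 (limma adjusted p = 0.53), and Pomp, an assembly factor of the proteasome, by -0.00 (0.99).

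None of 12 measured transcription factor genes of class I promoters passed (median -0.02, range -0.09 to 0.55). The highest, Ciita, read 306 and 307 in Ly49+ cells, against 197 and 210 in Ly49- cells (limma adjusted p = 0.077). Irf1, an interferon-induced activator of class I genes, differed by -0.04 (limma adjusted p = 0.91), the import factor Kpnb1 by -0.01 (0.97) and the Y box factor Nfyc by -0.08 (0.47). Of 18 measured interferon-gamma pathway genes, 1 was higher, 1 lower and 16 did not pass (median -0.04). The kinase gene Jak1, which signals from the interferon receptors, differed by 0.02 (limma adjusted p = 0.85), and Gbp7, an interferon-induced GTPase, by -0.06 (0.57). Cxcl9, an interferon-gamma-induced chemokine, read 508 and 553 in Ly49+ cells, against 283 and 270 in Ly49- cells (log2 fold change 0.90, limma adjusted p = 0.017). Iigp1, another interferon-induced GTPase, went the other way at 135 and 126 in Ly49+ cells, against 231 and 280 in Ly49- cells (-0.88, 0.032). Neither passed whichever array was left out (adjusted p = 0.074 to 0.13 for Cxcl9 and 0.11 to 0.19 for Iigp1), and Iigp1 missed the threshold with no trend in the spread (0.057).

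Most measured genes on a list of receptors that read class I molecules, and of other receptors, were higher in Ly49+ cells. Of 9, 6 were higher, 0 lower and 3 did not pass (median 0.65). Among all genes, 0.973% were higher and 0.693% lower (median -0.04). This list was chosen with earlier results of these data known, so its count may partly reflect that choice. Klrc1, which encodes NKG2A, the inhibitory receptor for Qa-1, read 4900 and 5471 in Ly49+ cells, against 2786 and 2694 in Ly49- cells (log2 fold change 0.91, limma adjusted p = 0.0035). Klrc2 (1.39), Cd244a (1.26), Klrk1 (0.76), Pirb (0.65), a myeloid and B-cell receptor for class I, and Cd160 (0.48) also rose, with adjusted p from 0.0046 to 0.049. The ligand of the Cd244a receptor is not a class I molecule. The 3 that did not pass were Klrd1 (0.14), the CD94 partner chain of NKG2A, and the coreceptor genes Cd8a (-0.06) and Cd8b1 (-0.07). Of the 6, 4 passed when Ly49+ replicate 1 was left out, 2 when Ly49+ replicate 2 was, 2 with Ly49- replicate 1 omitted and 0 with Ly49- replicate 2 omitted, where Klrc1 had an adjusted p of 0.055. Pirb missed the threshold in 3 further settings (0.050 to 0.067), and Cd160 with no trend in the spread (0.068). The difference between receptors and ligands was not tested.

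**Figure D4:**
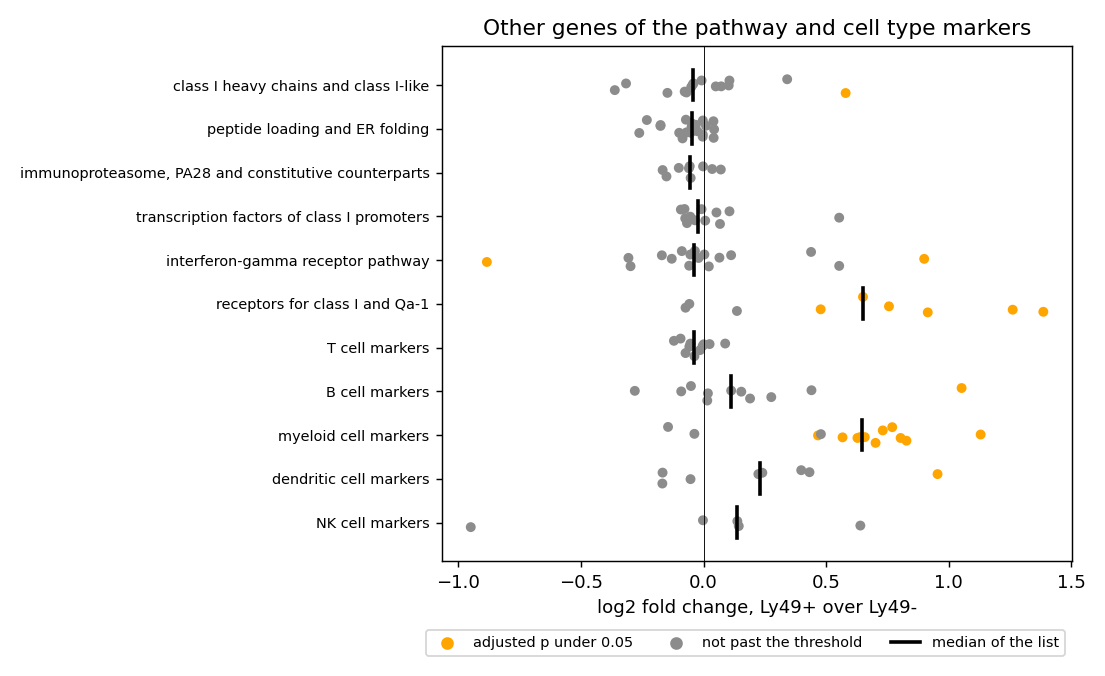
Log2 fold change, Ly49+ over Ly49-, of the genes in each pathway or marker list (1 point per gene, orange at a limma adjusted p under 0.05), with the list median as a bar. The class I, loading, proteasome and T cell medians lie between -0.06 and -0.04, while the receptor and myeloid medians are 0.65.

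Nearly all nucleated cells express class I genes, so markers of other cells were also read. Of 14 myeloid markers, 11 were higher in Ly49+ cells, 0 lower and 3 did not pass, where 0.973% of all genes were higher. The marker lists too were chosen with earlier results of these data known. The summed myeloid intensities were 41389 and 44487 in Ly49+ cells, against 33127 and 32941 in Ly49- cells. The largest part of each sum was Ctss, at 15639 and 15581 in Ly49+ cells, against 16046 and 15995 in Ly49- cells. Lyz2, the lysozyme gene of macrophages, rose by 1.13 on the log2 scale (limma adjusted p = 0.0046), and Mpeg1, Cd14, C1qc, Vcam1, Fcgr1, Adgre1, C1qb, Hmox1, Csf1r and Cd68 rose by 0.47 to 0.83. Of the 11, 6 passed with Ly49+ replicate 1 omitted, 1 with Ly49+ replicate 2 omitted, 0 when either Ly49- array was left out and 2 with no trend in the spread. Among 11 B-cell markers Cd22 was higher (1.05, limma adjusted p = 0.0027), and the median was 0.11, with 3 of 11 negative. Their sums were 18849 and 20175 in Ly49+ cells, against 18966 and 20023 in Ly49- cells. Most of each sum was Ighm, at 13508 and 14523 in Ly49+ cells, against 14415 and 15442 in Ly49- cells. Among 8 dendritic-cell markers Xcr1 was higher (0.95, limma adjusted p = 0.020), and the median was 0.23, with 3 of 8 negative. Their sums were 3758 and 4019 in Ly49+ cells, against 3890 and 3679 in Ly49- cells. Cd22 passed whichever array was left out and Xcr1 did not (adjusted p = 0.074 to 0.15). None of 11 T-cell markers passed (median -0.04), with sums of 152979 and 152758 in Ly49+ cells, against 155150 and 154959 in Ly49- cells. None of 5 NK-cell markers passed, with sums of 22812 and 23221 in Ly49+ cells, against 22255 and 25007 in Ly49- cells, and Ncr1 read below the bacterial controls. Most of each NK-cell sum was Cd7 and Eomes. Behind these sums, Gzma differed by -0.95 (limma adjusted p = 0.16) and Itga2 by 0.64 (0.075). None of 4 erythroid or 8 endothelial and stromal markers passed. Below the bacterial controls on all arrays were also 3 B-cell, 1 myeloid, 1 dendritic-cell, 1 erythroid, and 2 endothelial and stromal markers. The part of these cells in the class I readings was not tested.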

How the data were processed

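Per the labels' protocols, an RNeasy kit gave total RNA, from which biotin-labelled cRNA was made by the Affymetrix method. The values the authors deposited were linear intensities per probe set (8.32 to 43959), already alike in distribution between arrays. Their summarization and normalization were not given in the sources used here. Groups came from the sample titles.

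Gene symbols came from GEO's platform annotation, in which 34945 had 1 symbol, 932 several and 9160 none, and 64 control probe sets were left out. Log2(intensity + 16) was tested with limma 3.58.1 in R 4.3.3, with group as the only term, a trend of the spread on level, 2 residual and 5.05 prior degrees of freedom, and Benjamini-Hochberg adjustment over 45037 probe sets. Other pathway genes were read by their brightest probe set with a single symbol. The test was tried on simulated data. The number of arrays limits the precision.

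The members and lists were chosen with earlier results of these data known. Named genes were all members, list genes past the threshold and the 3 brightest of each pathway list. Pdia3, Erap1, Psmb10, Psmb5, Ciita, Ctss, Gzma, Itga2, Cd7 and Eomes were named after their values were seen, so they do not stand for their lists. Alternatives tried were pseudocounts of 1 and 64, quantile normalization, the brighter probe sets alone, 1 probe set or the mean per gene, no _x_at or _s_at probe sets, a replicate block, no trend, a robust spread, an adjusted p under 0.1, and each array left out. A lone array was then taken to vary like those of the other group.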

Additional observations from a re-analysis of the deposited data

How the results depend on the processing

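With 2 arrays a group, small differences are near the limit of the test. The count of member probe sets called stayed at 0 with every alternative except the replicate block (2) and an adjusted p under 0.1 (1, H2-T23 by 1449556_at). Replicate numbers are shared by the groups, but the labels do not say that they pair samples. The deviations of same-numbered arrays from their group means correlated at 0.24, which with 2 pairs is a single value. With the replicate block, 1415 of all probe sets, 17 pathway list genes and, among the members, Tap2 (limma adjusted p = 0.015) and H2-T23 by 1449556_at (0.024) passed. All probe sets called numbered 538, against 233 with no trend and 1033 at an adjusted p under 0.1. Pathway list genes called numbered 9, against 16 with 1 probe set per gene and 14 at an adjusted p under 0.1. Leaving out each array gave 31 to 104 probe sets, 0 to 4 pathway list genes and 0 members. Of 31 members, 23 had a negative log2 fold change (59.2% of all probe sets), 24 after quantile normalization, 16 without Ly49- replicate 1 and 28 without Ly49- replicate 2. The causes were not tested.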

Other observations

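Some member readings differed more between replicate numbers than between groups. The H2-D1 probe set 1426324_at was higher in replicate 1 than in replicate 2 by 0.18 on the log2 scale in Ly49+ cells and by 0.19 in Ly49- cells. The H2-D1 probe set 1452544_x_at differed by 0.22 in Ly49+ cells and 0.20 in Ly49- cells. Tap2 went the other way, by -0.18 in Ly49+ cells and -0.20 in Ly49- cells, while the difference of Ly49+ from Ly49- cells was -0.33 within replicate 1 and -0.36 within replicate 2. For H2-T23 by 1449556_at that difference was -0.20 within replicate 1 and -0.21 within replicate 2. On the same arrays Ifng, the interferon-gamma gene, was higher in replicate 1 by 1.37 in Ly49+ cells and by 0.93 in Ly49- cells, and Irf1 by 0.29 and 0.14. The labels do not say what the replicate number stands for.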
